A study of Homo sapiens with 8 samples.

Results

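FGF21, GDF15, FGF19, STC2 and ADM2 encode secreted hormones that are known to be made when cells or tissues are under metabolic or proteotoxic stress. Their mRNA was followed in HT29 cells, an established line from a human colorectal adenocarcinoma, in 8 RNA-seq libraries of 4 groups with 2 libraries each. The groups were 10 µM ICG-001, 1.5 µM CWP232228, 0.3 µM YB-0158 and the vehicle, DMSO at 0.1%. Treatment lasted 48 h, except in replicate 2 of both ICG-001 and CWP232228, which the labels put at 49 h. ICG-001 and CWP232228 are known as small-molecule inhibitors of Wnt/β-catenin transcription. The 3 compounds were each given at 1 dose, and the doses differ, so a difference between compounds is also a difference between doses. The labels do not say whether the libraries of a group came from separate cultures, so a p-value weighs a difference only against variation among libraries, possibly of technical origin. HT29 is a single cell line in culture, and mRNA, not secreted protein, was measured.

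The 5 hormones and the gene lists below were chosen with earlier results of these data known. Counts of calls among them, set beside shares of all genes, are therefore descriptive and no test of the lists. The hormones were matched by gene symbol. Of these, 4 had a row among the 18937 rows of the authors' deposited comparison tables and were also among the 16449 genes with enough reads to be tested here. STC2 had neither.

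Endocrine hormones of this kind reach distant tissues through the blood. FGF21 and FGF19 lack the tight heparin binding of other fibroblast growth factors and need a klotho co-receptor on the target cell, GDF15 acts through a receptor found in the hindbrain, and ADM2 belongs to the calcitonin peptide family. Several of their genes are textbook targets of the integrated stress response, in which kinases phosphorylate eIF2α, translation of the mRNA of the transcription factor ATF4 goes up, and ATF4 pairs with C/EBP proteins on composite DNA elements. In the gut, FGF19 is better known as the bile acid hormone of the ileum, made under the nuclear receptor FXR.

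A library held 29071547 to 58489118 estimated reads in all. All 10 epithelial markers checked reached 1 CPM (counts scaled to library size), with summed levels of 11443 to 11848 CPM with ICG-001, 11012 to 11611 CPM with CWP232228, 13012 to 13219 CPM with YB-0158 and 14766 to 17142 CPM in DMSO. Of 5 leukocyte markers, 3 reached 1 CPM, and the defining PTPRC and CD3E stayed below it. The leukocyte list summed to 2488 to 2706 CPM with ICG-001, 2485 to 2645 CPM with CWP232228, 2565 to 2613 CPM with YB-0158 and 2779 to 2868 CPM in DMSO, of which LYZ, the lysozyme that intestinal epithelium is also known to make, held 2479 to 2862 CPM per library. Below 1 CPM were also 4 of 6 fibroblast and 3 of 5 endothelial markers. Reads of mRNAs encoded in mitochondria made up 3.43% to 4.36% of the reads in the 6 compound libraries and 0.903% to 1.40% in the 2 DMSO libraries. Fold changes against DMSO were lower for genes rich in G and C (Spearman rho over 16449 genes -0.43 with ICG-001, -0.58 with CWP232228, -0.38 with YB-0158). The transcripts of the hormones are richer in G and C than the median of 49.7% among genes tested, at 69.7% for ADM2, 62.7% for GDF15, 58.6% for FGF19 and 56.8% for FGF21. The part of these library differences in the hormones' values was not tested. A fit corrected for G and C content and length is given beside the results where it ended or made a call of a named gene.

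ADM2, GDF15 and FGF21 rose with all 3 compounds, and FGF19 rose with ICG-001 and YB-0158. ADM2 was between 3.40-fold and 7.80-fold of its DMSO level, GDF15 between 1.25-fold and 2.20-fold, and FGF21 had no read in DMSO. With CWP232228, FGF19 did not pass the test. Called means a Benjamini-Hochberg adjusted p under 0.05 over all 16449 genes in edgeR's quasi-likelihood test, and every adjusted p below comes from that fit unless another is named. Called higher were 4 of 4 tested hormones with ICG-001, where 24.8% of all genes tested were called higher, 3 of 4 with CWP232228, against 21.6% of all genes, and 4 of 4 with YB-0158, against 21.7%. With CWP232228, the call for GDF15 was near the threshold and was lost in some of the alternatives run. The FGF21 call with CWP232228 rested on 8 and 7 reads. Called lower were 0 of 4 hormones with each compound, against 24% of all genes with ICG-001, 21.2% with CWP232228 and 22.1% with YB-0158. The 3 comparisons share the same 2 DMSO libraries and are not independent of each other. In bulk RNA, fewer cells with a transcript and less of it per cell cannot be told apart.

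**Figure D1:**
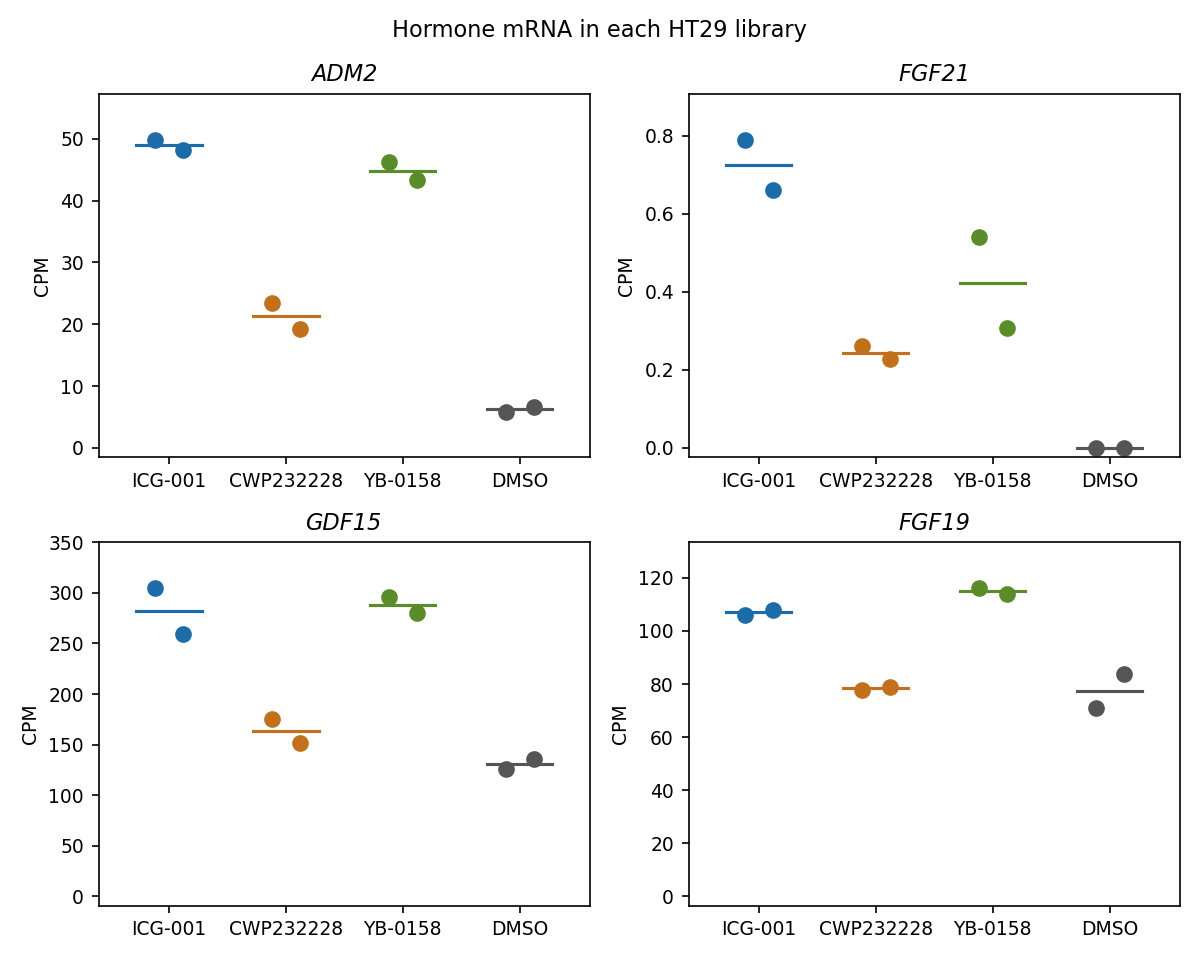
CPM (vertical axis, on separate scales that include 0) of ADM2, FGF21, GDF15 and FGF19 in each of the 8 libraries, by group. Each point is 1 library and each line the mean of the group's 2 libraries. The 6 compound libraries lie above both DMSO libraries for ADM2, FGF21 and GDF15, while the 2 CWP232228 libraries lie between the 2 DMSO libraries for FGF19.

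ADM2 (ENSG00000128165; GRCh38 chr22:50481556-50486440, plus strand) encodes adrenomedullin 2, also called intermedin, a peptide that relaxes vessels in rodents and signals through the receptor CALCRL with a RAMP partner. It stood at 49.9 and 48.1 CPM in the ICG-001 libraries, 23.5 and 19.3 CPM in the CWP232228 libraries, 46.3 and 43.4 CPM in the YB-0158 libraries, and 5.87 and 6.68 CPM in DMSO. All 6 compound libraries lay above both DMSO libraries, and the CWP232228 libraries lay between the other groups without overlap. Of all genes tested, 38.8% had both ICG-001 libraries above both DMSO libraries, 38.1% both CWP232228 libraries and 37.3% both YB-0158 libraries. The mean was 49.0 ± 1.22 CPM with ICG-001 and 6.28 ± 0.57 CPM in DMSO (SD, n = 2 each), which is 2.96 on the log2 scale (SE 0.12; adjusted p = 3.6e-06). With CWP232228 it was 21.4 ± 2.97 CPM (SD, n = 2), or 1.77 against DMSO on the log2 scale (SE 0.13; adjusted p = 0.000184). With YB-0158 it was 44.8 ± 2.05 CPM (SD, n = 2), or 2.84 on that scale (SE 0.12; adjusted p = 5.0e-06). Each difference was larger than the spread between replicates, and each was larger still, at 3.13, 2.03 and 2.94, with the correction for G and C content and length.

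The 2 annotated ADM2 transcripts (ENST00000395737 and ENST00000395738) differ little in length, and the estimated split between them was unstable. ENST00000395737 held 59.6% and 63.4% of the gene's reads with ICG-001, 95.4% and 94.2% with CWP232228, 66.9% and 49.1% with YB-0158, and 0% and 100% in DMSO. The 2 DMSO libraries put all reads on opposite transcripts, so only the gene total is read here.

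GDF15 (ENSG00000130513; chr19:18374731-18389176, plus strand), a distant member of the TGF-β family that lowers appetite through the receptor GFRAL, was the most abundant of the hormones. On the TPM scale, which divides by transcript length, it averaged 283 ± 30.6 TPM with ICG-001, 174 ± 1.31 TPM with CWP232228, 295 ± 7.19 TPM with YB-0158 and 116 ± 2.72 TPM in DMSO (SD, n = 2 each). On the same scale, FGF19 averaged 39.0 ± 2.01 TPM and ADM2 1.20 ± 0.04 TPM in DMSO.

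In single libraries GDF15 stood at 305 and 259 CPM with ICG-001, 175 and 151 CPM with CWP232228, 296 and 280.1 CPM with YB-0158, and 126 and 136 CPM in DMSO. The ICG-001 and YB-0158 libraries overlapped each other and lay above all others, and both CWP232228 libraries lay just above both DMSO libraries. The log2 fold change was 1.11 with ICG-001 (SE 0.10; adjusted p = 0.000110) and 1.14 with YB-0158 (SE 0.10; adjusted p = 0.000120). With CWP232228 it was 0.32 (SE 0.10; adjusted p = 0.0365), a call close to the threshold. That call was lost without either DMSO, either CWP232228 or either YB-0158 library, with log2 fold changes of 0.21 to 0.42 and adjusted p up to 0.211 over the 8 fits that left out 1 library. It was also lost with DESeq2 size factors in edgeR (0.30; adjusted p = 0.0503), whereas the correction for G and C content and length put it at 0.86, with 1.61 for both ICG-001 and YB-0158. For GDF15 with CWP232228, the log2 fold change in the authors' deposited table is 0.44, with an adjusted p of 0.000686. A single transcript, ENST00000252809, held most of the gene's reads in every library, from 81.3% to 81.6% with ICG-001, 79.4% to 82.0% with CWP232228, 79.8% to 82.0% with YB-0158 and 78.4% to 79.0% in DMSO.

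FGF21 (ENSG00000105550; chr19:48755559-48758333, plus strand) is known as a liver hormone of fasting and of amino acid shortage that acts through FGFR1 and the co-receptor KLB. No read was assigned to it in either DMSO library, which allows up to 0.104 and 0.106 CPM at a floor of 3 counts per library. It had 43 and 28 reads with ICG-001, 8 and 7 reads with CWP232228, and 31 and 12 reads with YB-0158. Every compound library thus held FGF21 reads and no DMSO library did. Scaled to library size, these were 0.789 and 0.661 CPM with ICG-001, 0.260 and 0.228 CPM with CWP232228, and 0.540 and 0.307 CPM with YB-0158.

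The observed mean CPM of FGF21 was 6.89 times the DMSO floor with ICG-001, 2.32 times with CWP232228 and 4.03 times with YB-0158. These ratios leave out the error of counting in the compound reads and are not lower bounds. With CWP232228, counting error allows as few as 3.45 and 2.81 reads in the 2 libraries, near the floor of 3 counts. The adjusted p was 0.000541 with ICG-001, 0.00528 with CWP232228 and 0.00137 with YB-0158. It belongs to the fitted fold change, not to these ratios. The level stayed low even where it was highest: with ICG-001, FGF21 averaged 0.679 ± 0.257 TPM and GDF15 283 ± 30.6 TPM (SD, n = 2 each). The FGF21 TPM depends on an unstable split between its 2 transcripts. ENST00000593756 held 40.5% and 100% of the gene's reads with ICG-001, 100% and 32.0% with CWP232228, and 100% in both YB-0158 libraries. With CWP232228 the call was lost in limma on log2 of the deposited FPKM plus a pseudocount of 1 (adjusted p = 0.114), a scale on which such low values are compressed. For FGF21 with CWP232228, DESeq2 and the authors' deposited table gave no adjusted p. The deposited table puts the log2 fold change of FGF21 at 0.30 with CWP232228 (SE 0.57), with 6.28 for ICG-001 and 4.76 for YB-0158. Its unadjusted p for CWP232228 is 0.00175, smaller than a value of 0.30 with that SE would give. How the deposited fold changes were estimated is not stated, so 0.30 is not read here as a small rise. The floors, like the counting intervals given later, take in the error of counting alone.

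The sequence upstream of FGF21 is shown because its letters match the motif of the composite elements to which ATF4 and C/EBP proteins are known to bind. It is the stretch just before the transcription start in RefSeq (GRCh38.p14, chr19:48755391-48755523, plus strand, 133 bases), with the match in capitals. The motif searched was TGATGNAA on both strands, and it was found on the minus strand, 54 to 47 bases before the start.
FGF21: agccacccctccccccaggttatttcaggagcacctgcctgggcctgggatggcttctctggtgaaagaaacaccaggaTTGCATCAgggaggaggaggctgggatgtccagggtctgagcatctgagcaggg
Of 35116 RefSeq promoter windows of the same length, 1.75% held this motif. The same stretch of ADM2 (chr22:50481410-50481542, plus strand), the hormone with the largest log2 fold change among the tested hormones that had reads in DMSO, held none of TGATGNAA, TGACGTNA and CCAAT, and is shown for comparison.
ADM2: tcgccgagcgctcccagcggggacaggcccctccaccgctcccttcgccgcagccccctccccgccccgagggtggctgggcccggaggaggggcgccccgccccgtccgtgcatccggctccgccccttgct
Windows of GDF15 and STC2 were also searched. Each held CCAAT, the core bound by NF-Y, on the minus strand, a motif found in 21.8% of windows of 133 bases, and neither held TGATGNAA or TGACGTNA. A match describes these letters only.

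FGF19 (ENSG00000162344; chr11:69698232-69704642, minus strand), which in the liver represses bile acid synthesis through FGFR4 and KLB, moved least of the tested hormones. It stood at 106 and 108 CPM with ICG-001, 77.8 and 79.0 CPM with CWP232228, 116 and 114 CPM with YB-0158, and 70.8 and 83.9 CPM in DMSO. The ICG-001 and YB-0158 libraries all lay above both DMSO libraries, and both CWP232228 libraries lay between the DMSO ones. The log2 fold change was 0.47 with ICG-001 (SE 0.09; adjusted p = 0.00280) and 0.57 with YB-0158 (SE 0.09; adjusted p = 0.00126). With CWP232228 it was 0.02, with a 95% interval from -0.18 to 0.22 (adjusted p = 0.869). After the correction for G and C content and length these values were 0.75 with ICG-001, 0.83 with YB-0158 and 0.33 with CWP232228, and the last was then called (adjusted p = 0.00399).

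STC2 (ENSG00000113739; chr5:173314713-173329503, minus strand), a glycoprotein that blocks the metalloproteinase PAPPA, was close to silent. It had 1 read in YB-0158 replicate 2, 1 read in DMSO replicate 1 and none in the other 6 libraries, all under the floor of 3 counts, so no fold is given.

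The order of the group means was ICG-001, YB-0158, CWP232228 and DMSO for ADM2 and FGF21, and YB-0158, ICG-001, CWP232228 and DMSO for GDF15 and FGF19. CWP232228 thus gave the lowest mean of the 3 compounds for each of the 4 hormones. Against ICG-001, CWP232228 libraries had less ADM2 (log2 fold change -1.20, 95% interval -1.45 to -0.94; adjusted p = 0.00202), less GDF15 (-0.79, -1.02 to -0.55; adjusted p = 0.00510) and less FGF19 (-0.45, -0.65 to -0.25; adjusted p = 0.0217). FGF21 was -1.56 in that comparison (-2.57 to -0.55) and was not called (adjusted p = 0.0754). Of the 4 tested hormones, 3 were therefore called lower, against 3.17% of all genes tested.

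YB-0158 libraries had more ADM2 than CWP232228 libraries (log2 fold change 1.07, 95% interval 0.82 to 1.32; adjusted p = 0.00215), more GDF15 (0.82, 0.58 to 1.05; adjusted p = 0.00411) and more FGF19 (0.55, 0.35 to 0.75; adjusted p = 0.00856). FGF21 was 0.81 in that comparison (-0.23 to 1.85) and was not called (adjusted p = 0.322). Here 3 of 4 hormones were called higher, against 3.56% of all genes tested. Between YB-0158 and ICG-001 no hormone was called, and 0.00608% of all genes tested, 1 gene, was called in edgeR. With DESeq2, 27 genes were called in that comparison, and 918 of the 16449 genes tested had an unadjusted p under 0.05 in edgeR. A share of about 0.05 would pass that threshold without any difference. The intervals of YB-0158 against ICG-001 ran from -0.37 to 0.12 for ADM2, -0.20 to 0.26 for GDF15, -0.09 to 0.30 for FGF19 and -1.64 to 0.14 for FGF21. All 6 pairs of groups were compared, with p adjusted over genes within each pair.

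Some of these calls between compounds were lost when 1 library was left out. The call for ADM2 held in all 8 fits that left out 1 library, both for CWP232228 against ICG-001 and for YB-0158 against CWP232228. For GDF15, CWP232228 against ICG-001 was lost without ICG-001 replicate 1 (-0.67; adjusted p = 0.0677) or CWP232228 replicate 2 (-0.69; adjusted p = 0.0751). YB-0158 against CWP232228 was lost for GDF15 without CWP232228 replicate 2 (0.72; adjusted p = 0.0650) or YB-0158 replicate 1 (0.78; adjusted p = 0.0608). For FGF19, CWP232228 against ICG-001 was lost without any 1 of the 6 compound libraries, at log2 fold changes of -0.46 to -0.44. YB-0158 against CWP232228 was lost for FGF19 without either CWP232228 or either YB-0158 library, at 0.54 to 0.57. Both FGF19 differences were also lost with offsets for each library's effective transcript lengths. FGF21 in CWP232228 against ICG-001 was called without DMSO replicate 1 (adjusted p = 0.0349) or DMSO replicate 2 (0.0342), without the low-count filter (0.0245) and with the correction for G and C content and length (0.0398).

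**Figure D2:**
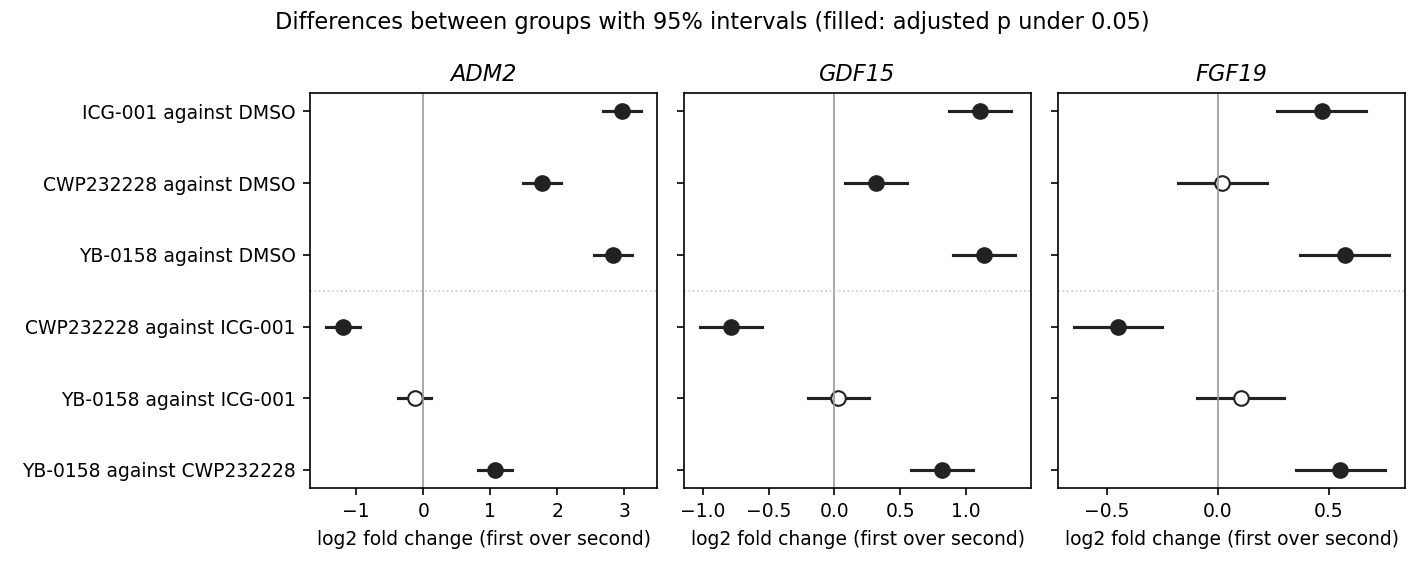
Log2 fold change (horizontal axis) of ADM2, GDF15 and FGF19 in each of the 6 comparisons (rows), with 95% intervals from the fitted model and filled points where the adjusted p is under 0.05. The 3 genes have separate horizontal scales. CWP232228 lies below ICG-001 for all 3, at -1.20 for ADM2, while YB-0158 against ICG-001 lies near 0.

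Likeness of profiles across libraries was measured as the root mean square difference between log2 CPM profiles (prior count 2), each centred on its mean over the 8 libraries. Profiles were not scaled to a common spread, so distances tend to be larger for genes with larger changes. GDF15 and FGF19 were closest to each other (0.265), followed by FGF21 and ADM2 (0.412), and FGF21 and FGF19 were farthest apart (1.30). These distances describe 8 libraries of 4 groups, which share the group means, and carry no test. FGF21 had no read in DMSO, so its values there are set by the prior count, and its distances depend on that choice.

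The genes with profiles closest to each hormone were named among 11064 genes with a mean log2 CPM of at least 2. Closest to ADM2 were PADI2 (0.162), a peptidylarginine deiminase, CEACAM5 (0.173), the carcinoembryonic antigen, and TRPV6 (0.184), an epithelial calcium channel. CEACAM5 is also 1 of the 10 epithelial markers, and it averaged 29.9 CPM with ICG-001, 16.8 CPM with CWP232228, 28.5 CPM with YB-0158 and 4.38 CPM in DMSO. Closest to GDF15 were HBEGF (0.0852), a ligand of the EGF receptor, ZFAND2A (0.0858), a zinc finger protein induced by arsenite, and KRT80 (0.0889), a keratin. Closest to FGF19 were ZPR1 (0.0503), a zinc finger protein, ALOX5 (0.0504), the leukotriene-forming lipoxygenase, and LONP1 (0.0518), a protease of the mitochondrial matrix. Like FGF19, these 3 genes were not called with CWP232228, and were called higher with the correction for G and C content and length (0.17 for ZPR1, 0.24 for ALOX5 and 0.38 for LONP1 on the log2 scale). Nearest to FGF21, which had few reads and large fitted changes, were CHAC1 (0.328), which degrades glutathione, LONRF2 (0.331), a RING finger protein, and CEACAM6 (0.332), an adhesion molecule. As the measure is not scaled, these distances do not compare with those of the other hormones. Which genes come nearest to FGF21 depends on the prior count, which sets its values in DMSO. CEACAM5 and CEACAM6 are close paralogs whose reads can be split uncertainly.

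**Figure D3:**
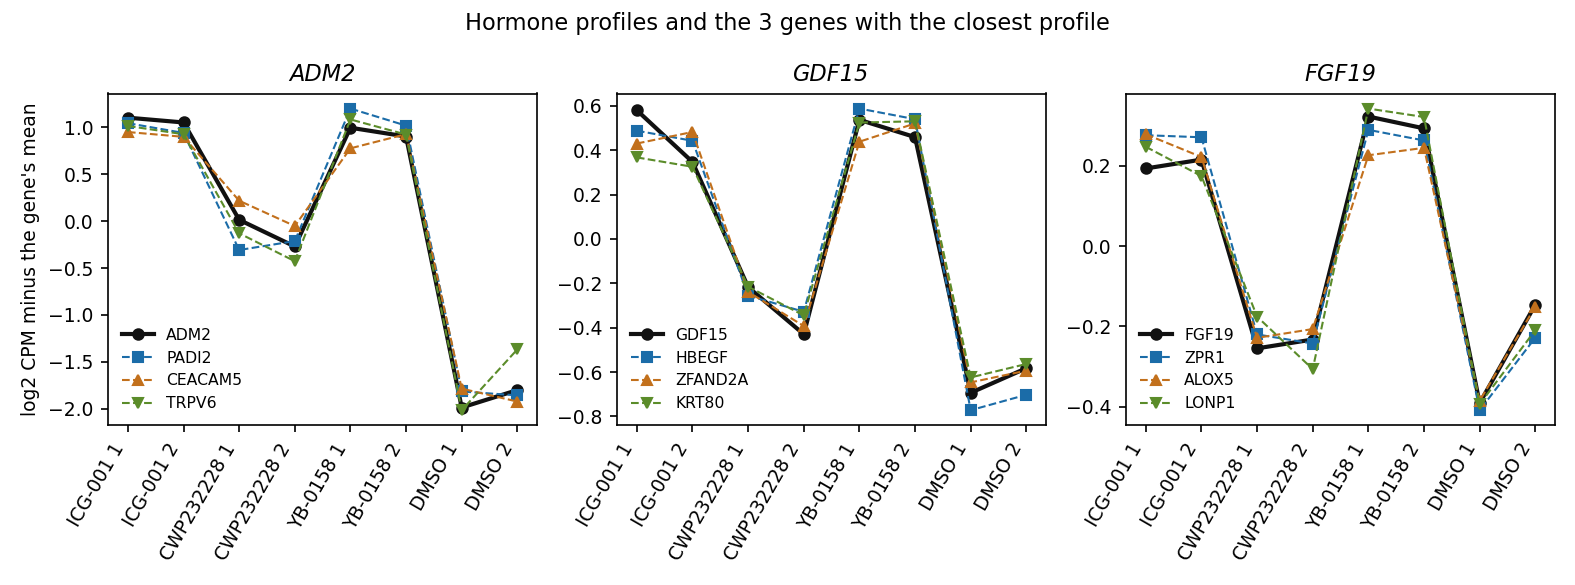
Log2 CPM minus the gene's own mean over 8 libraries (vertical axis) for ADM2, GDF15 and FGF19 (black) and the 3 genes with the closest profile, by library. Vertical scales differ between panels. In the panels of ADM2 and GDF15 the lines run high in ICG-001 and YB-0158, lower in CWP232228 and lowest in DMSO, while in the FGF19 panel the CWP232228 and DMSO libraries overlap.

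Of 12 receptor genes for these hormones, 7 had too few reads to be tested. Of the 5 tested, 1 rose and 3 fell with each compound, with a median log2 fold change of -0.39 with ICG-001, -0.31 with CWP232228 and -0.35 with YB-0158, against 0.03, 0.04 and 0.02 over all genes tested. Of all genes tested, 24.8%, 21.6% and 21.7% were called higher and 24%, 21.2% and 22.1% lower with these compounds. Over all alternatives run, 1 to 3 receptor genes were called lower with ICG-001, 2 to 3 with CWP232228 and 1 to 3 with YB-0158. FGFR4, the main receptor of FGF19 in liver, fell to 49.7 and 49.2 CPM with ICG-001, 75.4 and 69.5 CPM with CWP232228, and 57.2 and 55.7 CPM with YB-0158, against 145 and 160 CPM in DMSO. No compound library overlapped a DMSO library, and the log2 fold changes were -1.62, -1.07 and -1.43 in the same order (adjusted p = 7.4e-06, 0.000193 and 1.4e-05).

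FGFR2, which also binds endocrine fibroblast growth factors in its c form, moved the other way, at 91.9 and 91.5 CPM with ICG-001, 78.9 and 78.0 CPM with CWP232228, 107 and 107 CPM with YB-0158, and 56.9 and 46.4 CPM in DMSO. Its log2 fold changes were 0.83, 0.60 and 1.05 (adjusted p = 0.000292, 0.00262 and 0.000124). These values are for the FGFR2 gene total, and the share of the c form was not examined. FGFR3 fell by 0.39, 0.31 and 0.35 on the log2 scale, a call lost for each compound with effective-length offsets or with the correction for G and C content and length. It was also lost on the deposited FPKM for each compound, without CWP232228 replicate 2 for CWP232228 (-0.23) and without either library of its own group for YB-0158 (-0.38 and -0.34). KLB, the co-receptor of FGF21 and FGF19, stood at 0.283 to 0.487 CPM in the 8 libraries and was not called with any compound. FGFR1 had 2 reads in 1 ICG-001 library and none elsewhere, and KL, the klotho of FGF23, had none.

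GFRAL and its partner RET, the receptor pair of GDF15, had no read in any of the 8 libraries. CALCRL, the receptor of ADM2, had 0 to 7 reads per library, RAMP2 0 to 2 and RAMP3 0 to 1. RAMP1, another CALCRL partner, fell by 0.58 with ICG-001, 1.24 with CWP232228 and 0.61 with YB-0158 on the log2 scale. With the correction for G and C content and length, RAMP1 was no longer called for ICG-001 (0.044) or YB-0158 (-0.03), and neither call held in DESeq2, with effective-length offsets or on the deposited FPKM. The ICG-001 call was also lost without DMSO replicate 2 or any 1 of the ICG-001 and YB-0158 libraries, and the YB-0158 call without DMSO replicate 2 or either YB-0158 library, at values from -0.74 to -0.43.

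Of 10 genes for processing enzymes and binding partners of the hormones, 7 were tested. With ICG-001 5 rose and 1 fell, with CWP232228 5 rose and 1 fell, and with YB-0158 4 rose and 1 fell, with median log2 fold changes of 0.45, 0.32 and 0.44, while 21.6% to 24.8% of all genes tested were called higher and 21.2% to 24% lower with the 3 compounds. PAM, which amidates peptides of the adrenomedullin kind, rose by 0.45, 0.32 and 0.44, and PCSK5, a proprotein convertase, rose by 0.56, 0.61 and 0.76 on the log2 scale. With the correction for G and C content and length, PAM with CWP232228 (0.12) and PCSK5 with ICG-001 (0.14) and CWP232228 (0.21) were no longer called. PAM with CWP232228 was also not called with effective-length offsets (0.12) or on the deposited FPKM, nor was PAM with ICG-001 on FPKM (0.25). PAPPA2, a metalloproteinase of the family that STC2 blocks, had 81 and 34 reads with ICG-001, 10 and 4 with CWP232228, 54 and 32 with YB-0158, and 0 and 1 in DMSO. Scaled to library size, the ratio of summed reads to DMSO was 67.7 with ICG-001 (95% counting interval 11.9 to 2699), 13.0 with CWP232228 (1.98 to 550.2) and 50.8 with YB-0158 (8.88 to 2031). With CWP232228 the PAPPA2 call was lost with DESeq2, with effective-length offsets, with the correction for G and C content and length (2.91; adjusted p = 0.0716), and without DMSO replicate 1 or CWP232228 replicate 1.

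Regulators of the eIF2α and ATF4 branch were called higher in part with each compound, while the mRNA of ATF4 itself did not pass the test. Of 15 such genes, all tested, 9 rose and 0 fell with ICG-001 (median log2 fold change 0.58), 8 rose and 0 fell with CWP232228 (0.33), and 9 rose and 1 fell with YB-0158 (0.63). Of all genes tested, 24.8%, 21.6% and 21.7% were called higher and 24%, 21.2% and 22.1% lower with these compounds. Over all alternatives run, 8 to 12 of them were called higher with ICG-001, 3 to 8 with CWP232228 and 8 to 12 with YB-0158. ATF4 stood at 415 and 412 CPM with ICG-001, 408 and 398 CPM with CWP232228, 445 and 421 CPM with YB-0158, and 373 and 443 CPM in DMSO. The 2 DMSO libraries spanned all but 1 of the compound libraries. Its log2 fold changes were 0.02 (adjusted p = 0.871), -0.02 (0.883) and 0.08 (0.459), and with the correction for G and C content and length it was called for ICG-001 (0.16) and YB-0158 (0.20), as it was for YB-0158 without DMSO replicate 2 (0.20).

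DDIT3, the transcription factor CHOP, stood at 40.8 and 38.2 CPM with ICG-001, 17.2 and 16.1 CPM with CWP232228, 44.2 and 41.6 CPM with YB-0158, and 9.42 and 13.9 CPM in DMSO. It rose by 1.76, 0.52 and 1.88 on the log2 scale (adjusted p = 9.4e-05, 0.0310 and 8.2e-05). The CWP232228 call for DDIT3 was lost in each fit that left out 1 library except DMSO replicate 2, at values from 0.28 to 0.57, with effective-length offsets (0.51; adjusted p = 0.0913) and on the deposited FPKM. ATF3 rose by 1.46, 0.48 and 1.60, and its CWP232228 call was lost without DMSO replicate 1, without either CWP232228 library, with effective-length offsets and on the deposited FPKM. TRIB3, a pseudokinase that restrains ATF4, rose by 2.17, 0.90 and 2.26, and NUPR1, a stress-induced chromatin protein, by 2.28, 1.48 and 2.36. Against ICG-001, CWP232228 libraries had less of each of these 4 regulators, with log2 fold changes of -1.24 for DDIT3, -0.99 for ATF3, -1.27 for TRIB3 and -0.80 for NUPR1 (adjusted p = 0.00441, 0.00510, 0.00137 and 0.0106). Without ICG-001 replicate 1 or either CWP232228 library, the calls for DDIT3 (-1.29 to -1.20), ATF3 (-1.02 to -0.91) and NUPR1 (-0.86 to -0.74) were lost, and that for NUPR1 also without ICG-001 replicate 2 (-0.80). With effective-length offsets ATF3 (-0.91) and NUPR1 (-0.78) were not called either. ATF4 was -0.04 in that comparison, with a 95% interval from -0.24 to 0.16 (adjusted p = 0.858).

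**Figure D4:**
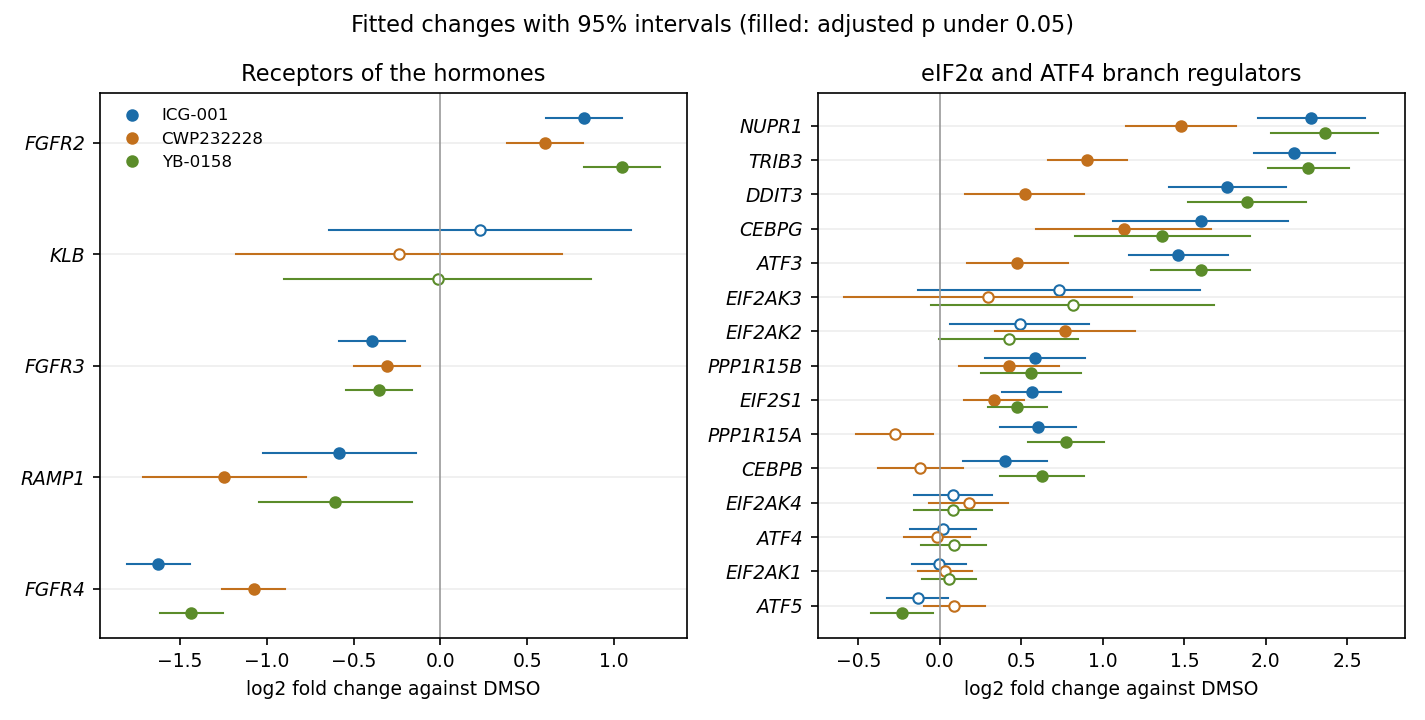
Log2 fold change against DMSO (horizontal axis) of the tested receptor genes and of 15 regulators of the eIF2α and ATF4 branch, with 95% intervals and filled points where the adjusted p is under 0.05. Colours mark the 3 compounds. FGFR4 lies farthest to the left among receptors, and ATF4 lies near 0 while NUPR1, TRIB3 and DDIT3 lie to the right.

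Other transcription factors known to act on these hormone genes were called in both directions. Of 15, 14 were tested, and 7 rose and 2 fell with ICG-001, 6 rose and 2 fell with CWP232228, and 6 rose and 2 fell with YB-0158, while 21.6% to 24.8% of all genes tested were called higher and 21.2% to 24% lower with the 3 compounds. ATF6, an endoplasmic reticulum stress sensor, rose by 1.18, 0.72 and 1.21 on the log2 scale, though its CWP232228 value was 0.06 and not called with the correction for G and C content and length. XBP1, its partner in the unfolded protein response, rose by 0.63, 0.26 and 0.60, a call lost for CWP232228 without either CWP232228 library, with effective-length offsets and on the deposited FPKM. PPARA, the fatty acid receptor through which fasting raises FGF21 in liver, rose by 0.63, 0.42 and 0.56, and this call was lost with effective-length offsets and on the deposited FPKM for each compound. PPARA with CWP232228 was also not called without either CWP232228 library (0.42 each), and stood at 0.048 with the correction for G and C content and length (adjusted p = 0.488).

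FGF19's known regulator FXR, encoded by NR1H4, was low at 0.487 to 0.814 CPM in the 8 libraries and was not called with any compound. With YB-0158, NR1H4 was -0.23, and was called lower with effective-length offsets (-1.26; adjusted p = 0.0347) and in limma on the deposited FPKM (-1.10 with a pseudocount of 0.1 and -0.49 with 1). With ICG-001, NR1H4 was 0.06, and was called lower in limma on the deposited FPKM with a pseudocount of 1 (-0.36; adjusted p = 0.0474). Of 8 other FXR targets, 5 were tested. With ICG-001 1 rose and 1 fell, and with CWP232228 and with YB-0158 0 rose and 1 fell, against 21.6% to 24.8% of all genes called higher and 21.2% to 24% lower. The gene that fell was NR0B2, the repressor SHP, at 4.41 and 5.12 CPM with ICG-001, 7.23 and 7.83 CPM with CWP232228, 7.14 and 7.14 CPM with YB-0158, and 17.1 and 23.1 CPM in DMSO. Its log2 fold changes were -2.08, -1.42 and -1.49, opposite in direction to those of FGF19 with ICG-001 and YB-0158. SLC51B, a bile acid transporter subunit, rose with ICG-001 by 0.93 (adjusted p = 0.0351), a call lost in DESeq2, with effective-length offsets, on the deposited FPKM and without DMSO replicate 1 (0.63), either ICG-001 library (0.71 and 1.12) or either CWP232228 library (0.93 each). FABP6, the ileal bile acid binding protein, was not called, but was called lower with effective-length offsets with ICG-001 (-0.99; adjusted p = 0.0227) and YB-0158 (-0.92; adjusted p = 0.0315), and on the deposited FPKM with both.

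Among 16 related hormones of the same families, 8 were tested, and 2 rose and 3 fell with ICG-001, 2 rose and 4 fell with CWP232228, and 2 rose and 2 fell with YB-0158. The number called higher is close to the 21.6% to 24.8% called higher among all genes tested, of which 21.2% to 24% were called lower. INHBE, an activin subunit made in liver and known as an ATF4-linked hormone, stood at 3.12 and 2.38 CPM with ICG-001, 1.40 and 0.880 CPM with CWP232228, 2.11 and 1.54 CPM with YB-0158, and 0.174 and 0.141 CPM in DMSO. It rose by 4.10, 2.83 and 3.51 on the log2 scale, from 9 reads in DMSO in all, and the CWP232228 call was lost on FPKM with a pseudocount of 1. TGFB1, the best known cytokine of the family, fell by 0.82, 0.68 and 0.62 and GDF11, a close relative of myostatin, by 0.90, 0.57 and 0.78, and the GDF11 call with CWP232228 was lost without CWP232228 replicate 2 (-0.50), with effective-length offsets (-0.64) and on the deposited FPKM.

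Of 13 other secreted factors known to respond to stress, 10 were tested, and 4 rose and 2 fell with ICG-001, 3 rose and 3 fell with CWP232228, and 5 rose and 1 fell with YB-0158, while 21.6% to 24.8% of all genes tested were called higher and 21.2% to 24% lower. VEGFA, the vascular growth factor, rose by 1.65, 0.84 and 1.65, HBEGF by 1.20, 0.45 and 1.30, and AREG, another EGF receptor ligand, by 0.96, 0.69 and 1.08.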

How the data were processed

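Per the labels' protocols, libraries were made from total RNA with TruSeq RNA v2, so reads carry no strand. Named in the submitters' processing notes are DESeq2, fastp, the build GRCh38 and Salmon 1.3.0, without their roles. The deposited library files give Salmon's estimated counts, TPM and an effective length per transcript, per the file headers. The authors' deposited comparison tables give each gene's mean signal in normalized counts, log2 fold change, p-value and FPKM per library. Which transcriptome release was used is not given in the sources used here.

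For each gene, estimated counts were summed with GENCODE release 29 (204677 of 228754 transcripts matched, 89.5%; unmatched transcripts held 1.54% to 1.85% of a library's reads) and rounded to whole numbers. No hormone shares exon bases with another gene in that release. TPM was summed likewise. edgeR 4.0.16 under R 4.3.3 (TMM, filterByExpr, robust quasi-likelihood) fitted 8 libraries and 4 groups in 1 model with 4 residual degrees of freedom, and genes with an adjusted p under 0.05 were called. The fit was tested on simulated counts with the same spread setting for every gene and group and no trend with G and C content. That test does not cover the unequal spread and the G and C trends of these libraries. CPM uses TMM library sizes. Levels are means with the SD over 2 libraries, and intervals are at 95%.

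Alternatives were DESeq2 1.42.0, its size factors, no low-count filter, effective-length offsets, a GC and length correction, a replicate block, leaving out each library, and limma 3.58.1 on log2 of the deposited FPKM plus 0.1 or 1. The hormones and all gene lists were chosen with earlier results of these data known. The text names the 5 hormones, all receptors, ATF4, DDIT3, ATF3 and NR1H4, the 3 genes with the smallest p against DMSO in each other list, and 3 genes per hormone with the closest profile. Promoter windows come from RefSeq. Of the 5 hormones, 4 matched. No samples were left out. Some genes of the lists are not reported here.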

Additional observations from a re-analysis of the deposited data

How the results depend on the processing

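With 2 libraries a group, the direction of each hormone's called change against DMSO held under every alternative run, and calls near the threshold did not. GDF15 with CWP232228 was 0.30 and not called with DESeq2 size factors, and 0.21 to 0.42 over the fits that left out 1 library. FGF19 with CWP232228 was 0.33 and called with the GC and length correction, with or without the replicate block. FGF21 with CWP232228 had an adjusted p of 0.114 on FPKM with a pseudocount of 1. That pseudocount put ADM2 at 2.35 with ICG-001 and 2.20 with YB-0158. The causes were not tested.

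Genes called with CWP232228 against DMSO numbered 7042, and 3368 with effective-length offsets, 4589 with the GC and length correction, 4319 with that and the replicate block, and 3458 and 3495 on FPKM with pseudocounts of 0.1 and 1. For CWP232228 against ICG-001 1121 were called, and 2126 without the low-count filter, 185 with effective-length offsets, 3163 with the GC and length correction, 653 with the replicate block and 2897 with both. For YB-0158 against ICG-001 1 was called, and 27 with DESeq2, 268 without the filter, 0 with effective-length offsets, 20 with the GC and length correction, 0 with the replicate block and 10 with both. For YB-0158 against CWP232228 1279 were called, and 2378 without the filter, 229 with effective-length offsets, 3089 with the GC and length correction, 814 with the replicate block and 2784 with both. Leaving out 1 library gave 5141 to 9412 calls with ICG-001, 2747 to 8798 with CWP232228 and 4238 to 8846 with YB-0158 against DMSO. Between compounds it gave 41 to 2940 calls for CWP232228 against ICG-001, 0 to 35 for YB-0158 against ICG-001 and 87 to 3306 for YB-0158 against CWP232228. Hormones called then numbered 1 to 4, 0 and 1 to 3 in these pairs, and 2 to 3 with CWP232228 against DMSO. Context genes called with CWP232228 were 20 with effective-length offsets, 19 and 18 on FPKM, and 20 to 41 over the fits that left out 1 library. RAMP1 with ICG-001 was 0.044 with the GC and length correction and 0.037 with that and the block. NR1H4 with ICG-001 was -0.36 and called lower on FPKM with a pseudocount of 1. Over all settings, genes of the lists called higher ranged from 0 to 12 and called lower from 0 to 4 per list and comparison. Processing partners called higher with CWP232228 numbered 1 to 5 against 5 in the text.

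Libraries with the same number deviated together between compounds (r across genes 0.12 to 0.51) but in opposite directions between DMSO and the compounds (-0.26 to -0.19), so the numbers were not taken as pairs. The difference between replicates also followed G and C content within each group. Spearman rho over 11335 genes was -0.59 in DMSO, 0.71 with ICG-001, 0.54 with CWP232228 and 0.52 with YB-0158. The replicate block left every hormone's call against DMSO as it was, and ended the calls for DDIT3 and ZFAND2A with CWP232228 (adjusted p = 0.0523 and 0.0702) and for SLC51B with ICG-001 (0.0576). Crossing the DMSO numbers, chosen after seeing the data, gave 1929, 0 and 2165 calls between compounds. The log2 difference between replicates had an SD of 0.33 in DMSO and 0.16 to 0.17 in the compound groups, while the model gives a gene 1 spread for all groups.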
